A study of Homo sapiens with 8 samples.

Results

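Expression of 36 interferon-stimulated antiviral genes was examined in BEAS-2B cells, an airway line made by viral immortalisation of human bronchial epithelial cells. The genes were chosen by symbol, and all 36 were found among the 26485 genes of the RNA-seq tables. The cells received a control siRNA or an siRNA against LY96, which encodes MD-2, the lipopolysaccharide-binding partner of the receptor TLR4. They were moved to BEBM medium 24 hours before stimulation with phosphate-buffered saline (PBS) or house dust mite (HDM) extract, and were harvested 24 hours after it. The 4 groups were control siRNA with PBS (1 library), control siRNA with HDM (3 libraries), LY96 siRNA with PBS (1 library) and LY96 siRNA with HDM (3 libraries). All 8 libraries came from the same line and all carried an siRNA, so untransfected cells were not among the groups. The doses of siRNA and extract were not given in the sources used here. Whether a group's 3 libraries came from separate cultures is not stated, so the p-values cover the library-to-library spread alone, and that spread may be technical.

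Type I and type III interferons bind their receptors, activate the kinases JAK1 and TYK2, and lead to assembly of the transcription factor complex ISGF3. ISGF3 binds the interferon-stimulated response element, a pair of GAAA repeats, in the promoters of antiviral genes. Many of these genes are expressed at a low tonic level in unstimulated epithelium and rise strongly when interferon is present. TLR4 can induce interferon through the adaptor TICAM1 (TRIF), and HDM extract carries lipopolysaccharide and allergens that act on this receptor.

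Expression is given in FPKM, a count of fragments corrected for transcript length and library depth, which allows levels of different genes to be compared. LY96 itself was listed at 0 FPKM in all 8 libraries, so its knockdown could not be checked and the groups are named by their labels. The sum of the 8 tables ran from 329777 to 340328 FPKM, the correlation between libraries ran from 0.992 to 0.997, and the sequencing depth is unknown. The 18S and 28S ribosomal RNA genes took 0.475% to 0.824% of the summed FPKM in the control HDM libraries and 1.03% to 1.31% in the LY96 HDM libraries, against 0.77% and 0.826% in the PBS libraries. This share moved with the siRNA under HDM, and its part in the results below was not tested. All 7 epithelial markers averaged 1 FPKM or more, with summed levels from 1119 to 1158 FPKM in the control HDM libraries, 1025 to 1070.1 FPKM in the LY96 HDM libraries, and 1111 and 1140.4 FPKM in the control and LY96 PBS libraries. With LY96 siRNA under HDM, 3 of the 7 were lower and 1 higher by limma, beside 8.92% and 6.68% of all genes tested. The lower 3 were KRT19 at 142 to 156 FPKM against 90.3 to 102 FPKM (-0.66 ± 0.05), KRT8 (-0.25 ± 0.03) and KRT18 (-0.24 ± 0.03). The higher 1 was CDH1, the E-cadherin gene, at 27.0 to 28.1 FPKM against 35.8 to 41.6 FPKM (0.49 ± 0.05). These markers also differed between the single PBS libraries of the siRNAs, 3 of the 7 being lower and 4 higher with LY96 siRNA. With control and LY96 siRNA under PBS, CDH1 was at 26.7 and 49.7 FPKM, KRT5 at 332 and 440 FPKM, and KRT19 at 153 and 119 FPKM. The part of these epithelial changes in the results below was not tested. Of the 7 fibroblast markers, DCN and LUM were listed at 0 in all 8 libraries and 3 averaged below 1 FPKM. The other 2 were PDGFRB, with a mean of 11.5 FPKM, and COL1A1, with a mean of 7.35 FPKM. COL1A1 was at 5.72 to 6.10 FPKM in the control HDM libraries and 7.27 to 9.46 FPKM in the LY96 HDM libraries (0.37 ± 0.09, limma adjusted p = 0.0269), a call lost without any 1 control HDM library (0.0658 to 0.0834). PECAM1 (endothelium), PTPRC, CD3E and MS4A1 (leukocytes) and CLEC4C, LILRA4 and GZMB (plasmacytoid dendritic cells, a main source of interferon in blood) were listed at 0 in all 8 libraries, and TCF4, a plasmacytoid marker that other cells also express, had a mean of 1.04 FPKM. Among the 7 leukocyte markers, 1 averaged 1 FPKM or more. It was CD68, a lysosomal protein that other cells also make, at 2.79 to 3.53 FPKM in the control HDM libraries and 4.93 to 5.30 FPKM in the LY96 HDM libraries.

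Of the 36 genes, 35 averaged 1 FPKM or more across the libraries, and CXCL11 was low at 0.328 FPKM. The median of the 35 means was 12.3 FPKM, against 9.82 FPKM for all genes averaging 1 FPKM or more. The 3 most abundant encode small membrane proteins that block virus entry: IFITM3 at 652.6 FPKM, IFITM1 at 256.9 FPKM and IFITM2 at 192 FPKM. A further 23 genes lay between 5 and 100 FPKM, and 9 lay between 1 and 5 FPKM, with RSAD2 the lowest at 1.63 FPKM. RSAD2, CMPK2 and CXCL10 had means above 1 FPKM but values below 1 FPKM in at least 1 library. In bulk RNA, fewer cells expressing a gene and less RNA per cell cannot be told apart.

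**Figure D1:**
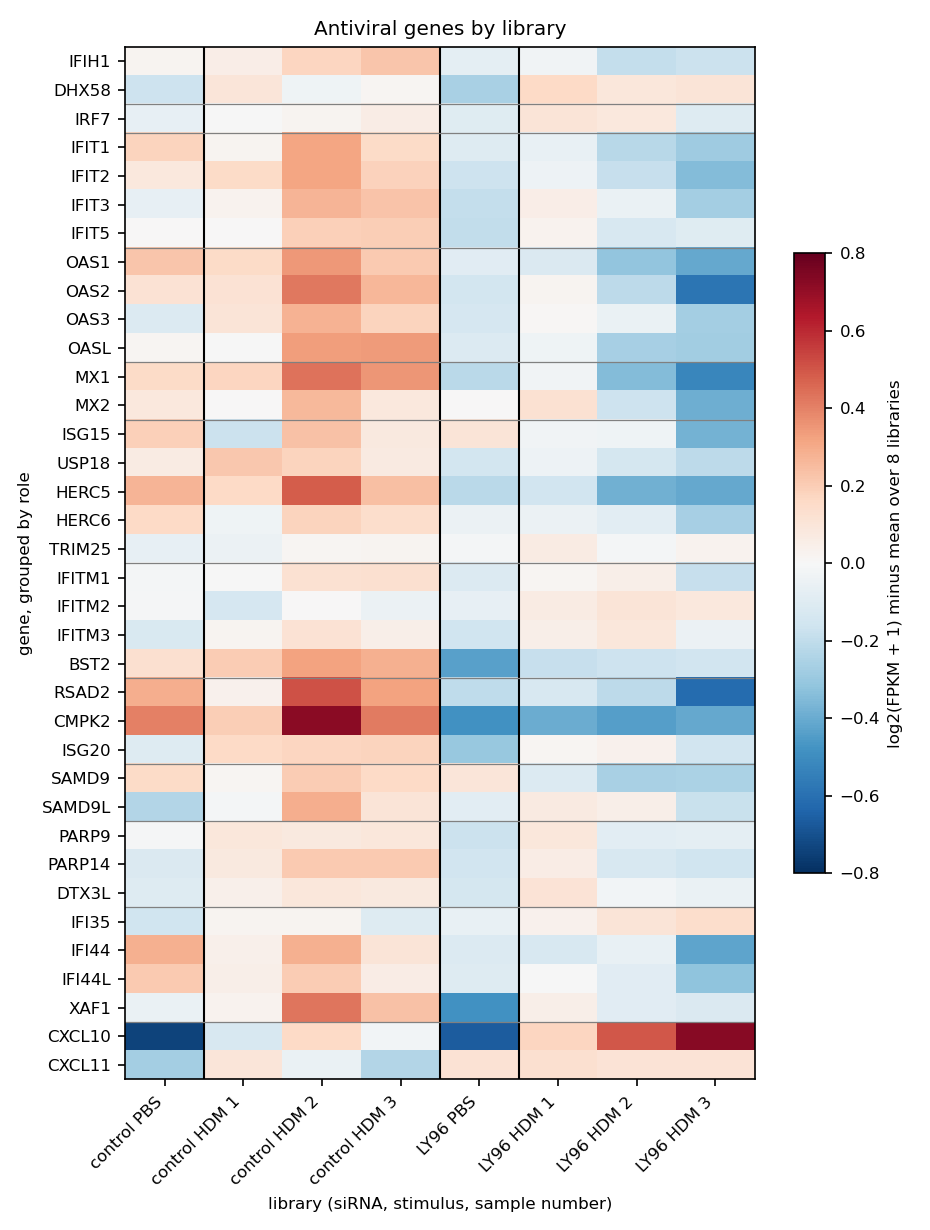
Expression of the 36 genes in each of the 8 libraries, as log2(FPKM + 1) minus the gene's mean over the 8 libraries (colour), with genes in rows grouped by role and libraries in columns. Most rows are higher in control HDM libraries 2 and 3 than in LY96 HDM libraries 2 and 3, CMPK2 and BST2 are low in all 4 LY96 libraries, and CXCL10 is lowest in both PBS libraries.

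Under HDM, 15 of the 35 tested genes were lower with LY96 siRNA and 1 was higher, by limma on log2(FPKM + 1) with Benjamini-Hochberg adjustment over 12598 genes and a threshold of 0.05. Over all genes tested, 8.92% were called lower and 6.68% higher. CMPK2, a mitochondrial nucleotide kinase, had the lowest ratio of the group means (0.376), followed by RSAD2 (0.497), the viperin gene, and HERC5 (0.598), the ligase that attaches ISG15 to new proteins. The differences lay below 0 for 29 genes and above 0 for 6. Their median was -0.26 on the log2 scale, against -0.02 for all genes tested. In 19 genes the 3 LY96 HDM values all lay below the 3 control HDM values, in 3 they all lay above, and in 13 the groups overlapped; over all genes tested, 21.8% were separated with LY96 lower and 15.2% with LY96 higher.

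The count of 15 depended on single libraries. It was 6 without control HDM library 2 and 7 without control HDM library 3. Without LY96 HDM library 2 it was 6, and without LY96 HDM library 3 it was 7. The share of all genes called lower moved in these settings from 8.92% to between 4.39% and 6.34%. The count was 13 without control HDM library 1 and 15 without LY96 HDM library 1, where the share was 5.93% and 5.52%. BST2, CMPK2, HERC5 and OAS1 were called lower under each of the 16 alternative analyses, and the sign of all 15 stayed below 0. Median-ratio scaling turned the split over all genes from 1124 lower and 842 higher to 879 lower and 1071 higher, and quantile normalization turned it to 958 lower and 991 higher; the 35 genes then gave 13 or 14 lower and 1 higher.

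**Figure D2:**
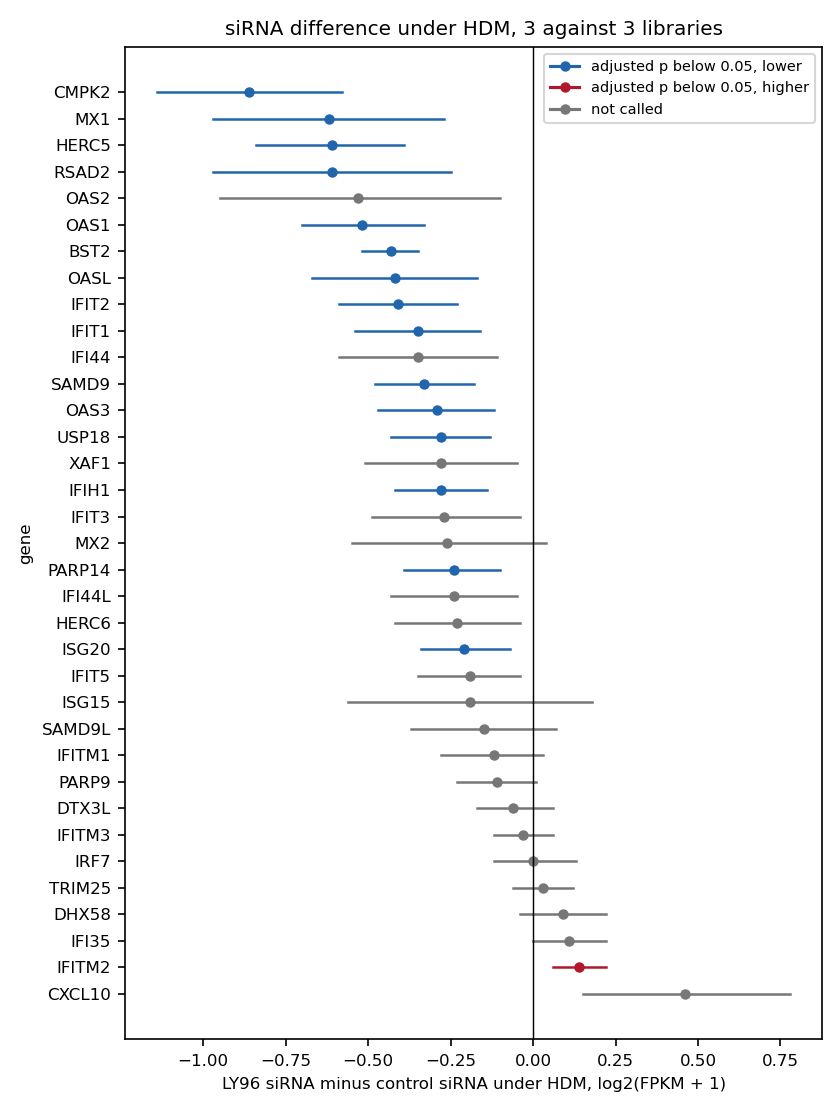
Difference between LY96 and control siRNA under HDM for the 35 genes tested, in log2(FPKM + 1), with points for the limma estimate, bars for its 95% confidence interval, and 3 libraries a group. Estimates run from -0.86 for CMPK2 to 0.46 for CXCL10, with 15 genes in blue called lower and IFITM2 in red called higher.

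Promoter sequences were taken from RefSeq (GRCh38.p14) for 28 of the 36 genes, in windows of 300 bases from 250 before to 50 after the start site. The response element core, 2 GAAA repeats with any 2 bases between them, was present on either strand in 20 of the 28 genes and in 62.2% of their 37 windows, against 3.57% of all 35116 windows. A spacing with 1 base between the repeats, GAAANGAAA, which was added after the sequences had been seen, was present in 13 genes and 40.5% of the windows, against 3.12% of all windows. The 2 spacings can overlap and share a repeat, as in SAMD9, where they begin at -136 and -141. IFI44, IFIT3, MX1, OAS3, PARP14, RSAD2 and SAMD9 had both. The gamma-activated site core TTCNNNGAA was present in 18.9% of the windows of these genes and 7.66% of all windows. These matches describe the letters of the windows and not binding. The genes were chosen as interferon-stimulated, so an excess of the response element core could be foreseen from the choice and is no result of these libraries.

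The following stretches show how the repeats lie in genes with unlike results: HERC5, BST2 and IFIT1 were lower with LY96 siRNA under HDM, CXCL10 and BST2 were higher with HDM, and ISG15, shown for its role, was called in neither comparison. Each is on the strand of its gene from 5′ to 3′, ends before the start site, and has the core of 2 GAAA repeats with 2 bases between them or its reverse complement in capitals. In CXCL10 the capitals also mark the NF-kappaB site core (GGGA, any 2 bases, T, any base, CC), which was not among the motifs first planned. It was found in 10.8% of the windows of these genes, in CXCL10, CXCL11, IFIH1 and OAS3, and in 4.93% of all windows. IFIH1 and OAS3 were not called higher with HDM, and the part of this motif in the CXCL10 levels was not tested.
HERC5 (chr4:88456919-88457116, plus strand): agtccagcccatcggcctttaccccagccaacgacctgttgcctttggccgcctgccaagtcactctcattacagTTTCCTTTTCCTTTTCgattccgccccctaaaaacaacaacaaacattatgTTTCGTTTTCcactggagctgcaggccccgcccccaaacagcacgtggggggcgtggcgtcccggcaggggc
BST2 (chr19:17405738-17405767, minus strand): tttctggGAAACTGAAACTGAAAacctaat
IFIT1 (chr10:89392423-89392545, plus strand): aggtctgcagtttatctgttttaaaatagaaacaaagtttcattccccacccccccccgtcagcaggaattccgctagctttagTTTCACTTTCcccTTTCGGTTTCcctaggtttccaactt
ISG15 (chr1:1013377-1013406, plus strand): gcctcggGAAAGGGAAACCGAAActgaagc
CXCL10 (chr4:76023498-76023747, minus strand): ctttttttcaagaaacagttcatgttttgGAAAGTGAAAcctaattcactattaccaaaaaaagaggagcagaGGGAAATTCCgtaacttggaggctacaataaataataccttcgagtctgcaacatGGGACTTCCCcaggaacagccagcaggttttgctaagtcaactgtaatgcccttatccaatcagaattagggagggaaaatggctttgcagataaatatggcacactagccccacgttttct

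RSAD2, OAS1 and MX1 carry the shorter spacing, with GAAANGAAA or its reverse complement in capitals. RSAD2 and MX1 also have the core with 2 bases between the repeats in other windows.
RSAD2 (chr2:6865814-6865843, plus strand): agcgttgcgggGAAACGAAAgccggaggcc
OAS1 (chr12:112906932-112906961, plus strand): cctcccttctgagGAAACGAAAccaacagc
MX1 (chr21:41426115-41426144, plus strand): caggagctaggTTTCGTTTCtgcgcccgga

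Of the 2 RNA sensors, 1 was called lower with LY96 siRNA under HDM and 1 was not called, and they were not tested against each other. IFIH1, which encodes MDA5, a sensor of long double-stranded RNA, was at 9.59, 10.5 and 10.9 FPKM in the control HDM libraries and at 9.0, 7.94 and 8.06 FPKM in the LY96 HDM libraries, with 9.39 and 8.67 FPKM in the control and LY96 PBS libraries. The HDM groups did not overlap, and the difference was -0.28 ± 0.06 on the log2 scale (SE, n = 3 against 3; limma adjusted p = 0.0188). DHX58, which encodes LGP2, a regulator of MDA5 signalling, was at 5.06, 4.54 and 4.75 FPKM with control siRNA and HDM and at 5.34, 5.04 and 5.09 FPKM with LY96 siRNA and HDM. Its groups overlapped, with a difference of 0.09 ± 0.06 (limma adjusted p = 0.312). IRF7, the factor that amplifies interferon gene transcription, was at 18.6 to 21.6 FPKM in all 8 libraries, with a difference of 0.00 (95% interval -0.12 to 0.13). The IFIH1 call was lost without control HDM library 2 or 3 or LY96 HDM library 2 or 3 (limma adjusted p from 0.0582 to 0.0641).

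The 4 IFIT genes, neighbours on chromosome 10 (89283694 to 89421001, GRCh38), encode proteins that bind viral RNA ends and block its translation. All 4 differences lay below 0 and 2 passed the test. IFIT1 was at 7.48, 9.41 and 8.28 FPKM in the control HDM libraries and at 7.04, 6.19 and 5.86 FPKM in the LY96 HDM libraries. Control PBS had 8.47 FPKM and LY96 PBS 6.79 FPKM, so each PBS library lay within the range of its HDM group. The IFIT1 difference was -0.35 ± 0.09 (limma adjusted p = 0.0278), and the call was lost without control HDM library 2 or 3 or LY96 HDM library 2 or 3 (0.0730 to 0.0829). IFIT2 was at 9.75, 11.01 and 9.98 FPKM with control siRNA and at 8.38, 7.51 and 6.61 FPKM with LY96 siRNA under HDM, and at 9.25 and 7.63 FPKM under PBS. Every LY96 value of IFIT2 lay below every control value, with a difference of -0.41 ± 0.08 under HDM (limma adjusted p = 0.0111). For IFIT3 and IFIT5 the HDM groups overlapped, with differences of -0.27 and -0.19 (limma adjusted p = 0.108 and 0.0836).

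The OAS genes encode enzymes and a related protein that respond to double-stranded RNA, the enzymes making oligoadenylate that activates RNase L. OAS1, OAS3 and OASL were lower with LY96 siRNA under HDM. OAS1 was at 19.7, 22.8 and 20.6 FPKM in the control HDM libraries and at 16.2, 14.0 and 13.1 FPKM in the LY96 HDM libraries, against 20.8 and 16.5 FPKM in the control and LY96 PBS libraries. All 4 LY96 values lay below all 4 control values. The OAS1 difference was -0.52 ± 0.08 (limma adjusted p = 0.00504), a ratio of group means of 0.686. OAS3 was at 31.6, 35.7 and 33.3 FPKM with control siRNA and at 29.4, 28.2 and 24.1 FPKM with LY96 siRNA under HDM, and at 27.1 and 26.6 FPKM under PBS. Its HDM groups did not overlap, with a difference of -0.29 ± 0.08 (limma adjusted p = 0.0364), while its PBS values were nearly equal. OASL, a protein with an OAS-like domain and ubiquitin-like repeats that enhances RIG-I signalling, was at 2.94, 3.98 and 4.0 FPKM with control siRNA and at 2.86, 2.28 and 2.25 FPKM with LY96 siRNA under HDM, and at 2.98 and 2.66 FPKM under PBS. The closest values of its 2 HDM groups were 2.94 and 2.86 FPKM, and the difference was -0.42 ± 0.11 (limma adjusted p = 0.0369). OAS2 had a similar estimate, -0.53 ± 0.17, with wider spread in the LY96 HDM libraries (7.73 to 12.3 FPKM), and did not pass (limma adjusted p = 0.0988). The OAS3 call was lost without control HDM library 1, 2 or 3 or LY96 HDM library 2 (0.0516 to 0.109), and the OASL call without control HDM library 2 or 3 or LY96 HDM library 2 or 3 (0.101 to 0.117). OAS2 passed without LY96 HDM library 1 (limma adjusted p = 0.0391).

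MX1 and MX2, neighbours on chromosome 21, encode dynamin-like GTPases that trap viral nucleocapsids. MX1 was at 30.4, 36.7 and 34.5 FPKM in the control HDM libraries and at 26.3, 21.0 and 18.4 FPKM in the LY96 HDM libraries, with 30.05 and 23.0 FPKM in the control and LY96 PBS libraries. The 4 control values all lay above the 4 LY96 values. The difference under HDM was -0.62 ± 0.14 (limma adjusted p = 0.0395). It passed the test without LY96 HDM library 1 and lost the call without any other single HDM library (0.0564 to 0.126), and also after scaling to equal totals (0.0568). MX2, at 1.49 to 2.89 FPKM over all libraries, had overlapping groups and a difference of -0.26 (limma adjusted p = 0.212).

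ISG15 is a ubiquitin-like protein that HERC5 attaches to other proteins and USP18 removes. ISG15 itself, at 45.8, 61.1 and 54.7 FPKM with control siRNA and 50.9, 50.6 and 39.7 FPKM with LY96 siRNA under HDM, had overlapping groups and a difference of -0.19 ± 0.15 (limma adjusted p = 0.432). HERC5 was at 5.66, 7.34 and 6.04 FPKM in the control HDM libraries and at 4.36, 3.56 and 3.48 FPKM in the LY96 HDM libraries. Its PBS values were 6.2 FPKM with control siRNA and 4.11 FPKM with LY96 siRNA, so the libraries divided by siRNA with and without HDM. The HERC5 difference under HDM was -0.61 ± 0.10 (limma adjusted p = 0.00560). USP18, which also restrains the type I interferon receptor, was at 5.27, 5.09 and 4.67 FPKM with control siRNA and at 4.24, 3.90 and 3.67 FPKM with LY96 siRNA under HDM, and at 4.64 and 3.88 FPKM under PBS. The USP18 groups did not overlap under HDM, with a difference of -0.28 ± 0.07 (limma adjusted p = 0.0225); the call was lost without control HDM library 1 or 2 or LY96 HDM library 2 or 3 (0.0600 to 0.0741). HERC6, the neighbour of HERC5 on chromosome 4, did not pass at -0.23 (limma adjusted p = 0.103) although its HDM groups were separated. TRIM25, the ligase of the RIG-I pathway, ranged from 21.9 to 24.1 FPKM over all 8 libraries and had a difference of 0.03 (95% interval -0.06 to 0.12).

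Among the membrane proteins, BST2 was called lower and IFITM2 higher with LY96 siRNA under HDM, while both were lower with LY96 siRNA under PBS. BST2, or tetherin, which holds budding virions on the cell surface, was at 82.8, 90.1 and 87.7 FPKM in the control HDM libraries and at 63.3, 64.1 and 64.6 FPKM in the LY96 HDM libraries. The PBS libraries had 78.7 FPKM with control siRNA and 53.0 FPKM with LY96 siRNA. BST2 thus separated all libraries by siRNA, with a difference of -0.43 ± 0.04 under HDM (limma adjusted p = 2.54e-04), the smallest adjusted p of the 35 genes. IFITM2 was at 175, 193 and 186 FPKM with control siRNA and at 201, 207 and 203 FPKM with LY96 siRNA under HDM, and at 191 and 183 FPKM under PBS. Its difference was 0.14 ± 0.04 (limma adjusted p = 0.0358) under HDM, and the call was lost without control HDM library 1 or 3 or any LY96 HDM library (0.0590 to 0.0923). IFITM1 and IFITM3 did not differ beyond their spread, with estimates of -0.12 (95% interval -0.28 to 0.03) and -0.03 (-0.12 to 0.06). IFITM1 shares 32.5% of its exonic bases with an IFITM2 transcript on the same strand (GENCODE v29), and the family is close in sequence, so the split of reads between these genes is uncertain.

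The 3 genes for nucleotide and RNA enzymes were all lower with LY96 siRNA under HDM. CMPK2 was at 2.09, 3.43 and 2.59 FPKM in the control HDM libraries and at 1.04, 0.981 and 1.03 FPKM in the LY96 HDM libraries, against 2.56 and 0.923 FPKM in the control and LY96 PBS libraries. The 4 LY96 values lay between 0.923 and 1.04 FPKM, below the lowest control value of 2.09 FPKM. Group means under HDM were 2.70 ± 0.678 and 1.02 ± 0.0329 FPKM (SD, n = 3 each), and the difference was -0.86 ± 0.12 on the log2(FPKM + 1) scale (limma adjusted p = 0.00302), a scale that understates the change of genes this low. RSAD2, whose product viperin converts CTP into a chain terminator of viral polymerases, was at 1.62, 2.65 and 2.2 FPKM with control siRNA and at 1.34, 1.21 and 0.668 FPKM with LY96 siRNA under HDM, and at 2.13 and 1.22 FPKM under PBS. Its difference was -0.61 ± 0.16 (limma adjusted p = 0.0340), lost without control HDM library 2 or 3 or LY96 HDM library 2 or 3 (0.0623 to 0.108). CMPK2 (chr2:6840570-6866635, minus strand) and RSAD2 (chr2:6865806-6898239, plus strand) are transcribed away from each other from overlapping starts, and 0.325% of the exonic bases of CMPK2 lie in exons of RSAD2. ISG20, an exonuclease that degrades single-stranded RNA, was at 6.88, 6.93 and 6.98 FPKM with control siRNA and at 6.12, 6.21 and 5.34 FPKM with LY96 siRNA under HDM, and at 5.56 and 4.72 FPKM under PBS. The ISG20 groups did not overlap under HDM, but the difference of -0.21 ± 0.06 (limma adjusted p = 0.0482) lost its call when any 1 of the 6 HDM libraries was left out (0.0560 to 0.119).

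**Figure D3:**
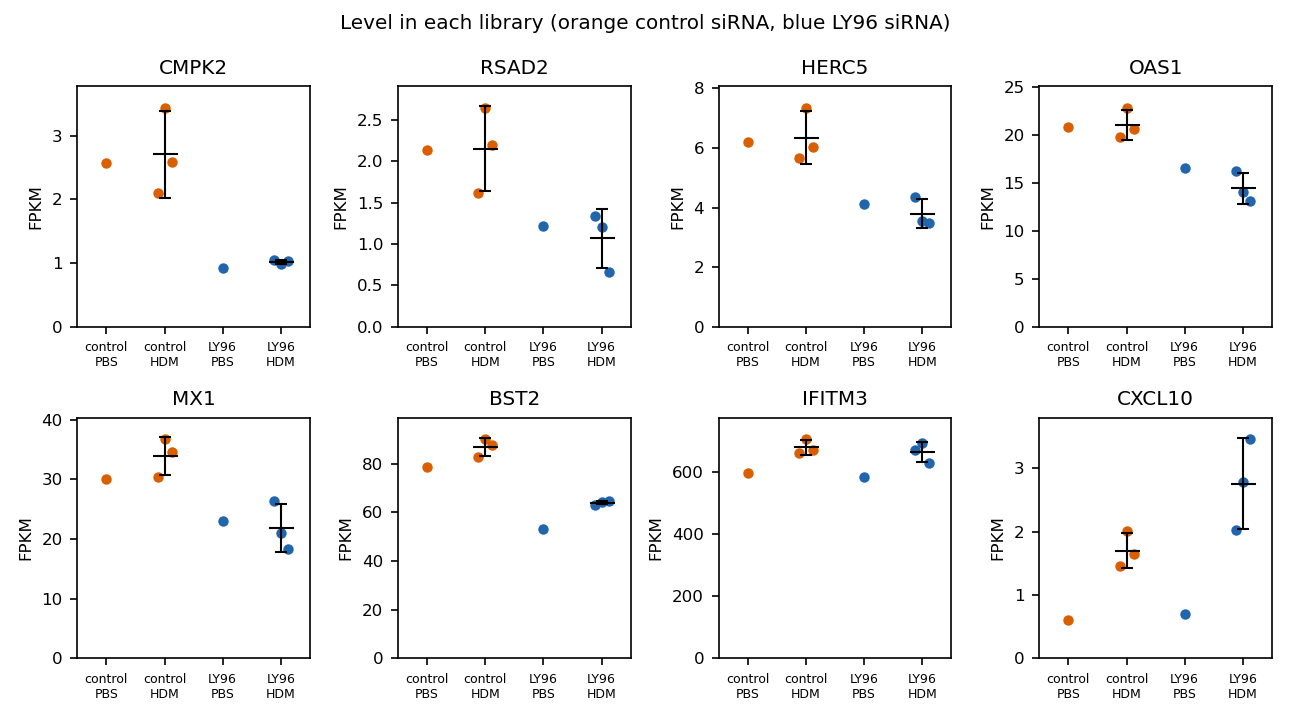
Level in FPKM of 8 genes in each library, with control siRNA in orange and LY96 siRNA in blue, and the mean with its SD as a line and bar for the groups of 3; PBS groups have 1 point. CMPK2, RSAD2, HERC5, OAS1, MX1 and BST2 separate by siRNA with and without HDM, and IFITM3 overlaps under HDM. CXCL10 is higher in the HDM libraries than in the PBS library of the same siRNA.

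SAMD9 and SAMD9L are neighbours on chromosome 7 and encode restriction factors of poxviruses. SAMD9 was at 8.2, 9.45 and 9.15 FPKM in the control HDM libraries and at 7.44, 6.59 and 6.64 FPKM in the LY96 HDM libraries, with 9.10 and 8.72 FPKM in the control and LY96 PBS libraries. All 3 LY96 HDM values lay below the other 5, and the difference under HDM was -0.33 ± 0.07 (limma adjusted p = 0.0112). SAMD9L overlapped between the HDM groups, at -0.15 (limma adjusted p = 0.340). PARP14, an ADP-ribosyltransferase, was at 18.5, 20.4 and 20.5 FPKM with control siRNA and at 18.3, 15.9 and 15.6 FPKM with LY96 siRNA under HDM, and at 16.1 and 15.7 FPKM under PBS. The nearest PARP14 values of the HDM groups were 18.5 and 18.3 FPKM, with a difference of -0.24 ± 0.06 (limma adjusted p = 0.0371) that lost its call without control HDM library 2 or 3 or LY96 HDM library 2 or 3 (0.103 to 0.115). Its chromosome 3 neighbours PARP9 and DTX3L, which encode a complex of an ADP-ribosyltransferase and a ubiquitin ligase, had overlapping groups and differences of -0.11 and -0.06 (limma adjusted p = 0.196 and 0.474).

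IFI44, IFI44L, XAF1 and IFI35 did not pass the test under HDM. IFI44 and IFI44L, adjacent paralogs on chromosome 1, were separated between the HDM groups with estimates of -0.35 and -0.24 (limma adjusted p = 0.0624 and 0.0840). XAF1, a pro-apoptotic partner of the inhibitor XIAP, had an estimate of -0.28 (limma adjusted p = 0.0934) and passed without control HDM library 1 (0.0197). IFI35, a leucine zipper protein released as a danger signal, lay above 0 at 0.11 (limma adjusted p = 0.147), with its LY96 HDM values of 26.0 to 28.1 FPKM above its control HDM values of 23.6 to 25.8 FPKM.

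CXCL10 and CXCL11, neighbours on chromosome 4, encode chemokines that draw T cells through the receptor CXCR3. CXCL10 was at 0.608 FPKM in the control PBS library and at 1.46, 2.00 and 1.64 FPKM in the control HDM libraries. With LY96 siRNA it was at 0.696 FPKM under PBS and at 2.03, 2.79 and 3.46 FPKM under HDM. Each HDM value thus lay above both PBS values, and the LY96 HDM values lay above the control HDM values, the nearest pair being 2.03 and 2.00 FPKM. The siRNA difference under HDM was 0.46 ± 0.14 and did not pass (limma adjusted p = 0.0569); it passed without LY96 HDM library 1 (0.0176) and after scaling to equal totals (0.0477). CXCL11 was at 0.0937 FPKM under PBS and 0.409, 0.271 and 0.124 FPKM under HDM with control siRNA, and at 0.433 FPKM under PBS and 0.442, 0.426 and 0.423 FPKM under HDM with LY96 siRNA. These levels were below the minimum of 1 FPKM and were not tested.

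Under PBS, where each siRNA had 1 library, the spread was taken from the HDM libraries, and the single PBS libraries are assumed to vary like them. BST2 was lower with LY96 siRNA, at a difference of -0.56 ± 0.06 (limma adjusted p = 0.0159), and was 1 of the 35 genes called lower, with 0 called higher; over all genes, 0.214% were called lower and 0.254% higher. The call was lost without the trend and robust settings of limma (0.101). CMPK2 had an estimate of -0.89 ± 0.21 that did not pass (limma adjusted p = 0.112), and its ratio of LY96 to control was 0.360 under PBS and 0.376 under HDM. HERC5 and RSAD2 both had estimates of -0.49 (limma adjusted p = 0.217 and 0.416). The differences lay below 0 for 31 of the 35 genes, with a median of -0.13, against -0.02 over all genes.

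The siRNA differences under PBS and under HDM come from separate libraries, apart from the shared estimate of spread. Of the 35 genes, 31 (88.6%) had the same sign in both, and Pearson's r across these genes was 0.79; over 12566 genes, 67.6% had the same sign and r was 0.40. All 15 genes called lower under HDM were below 0 under PBS, as were 91.1% of all genes called lower under HDM. Genes are not independent replicates and the points share their libraries, so these values describe the libraries only. No gene of the 35 passed the test of whether the siRNA difference depended on HDM, and 1 had an unadjusted p below 0.05 (IFITM2, 0.20 ± 0.07, limma adjusted p = 0.593), against 7.58% of all genes; over all genes, 0.0555% were called higher and 0 lower. For CMPK2 the interaction estimate was 0.03 (95% interval -0.53 to 0.59), for BST2 0.13 (-0.04 to 0.29) and for SAMD9 -0.28 (-0.57 to 0.02). An interval this wide does not show that the CMPK2 difference was equal with and without HDM.

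**Figure D4:**
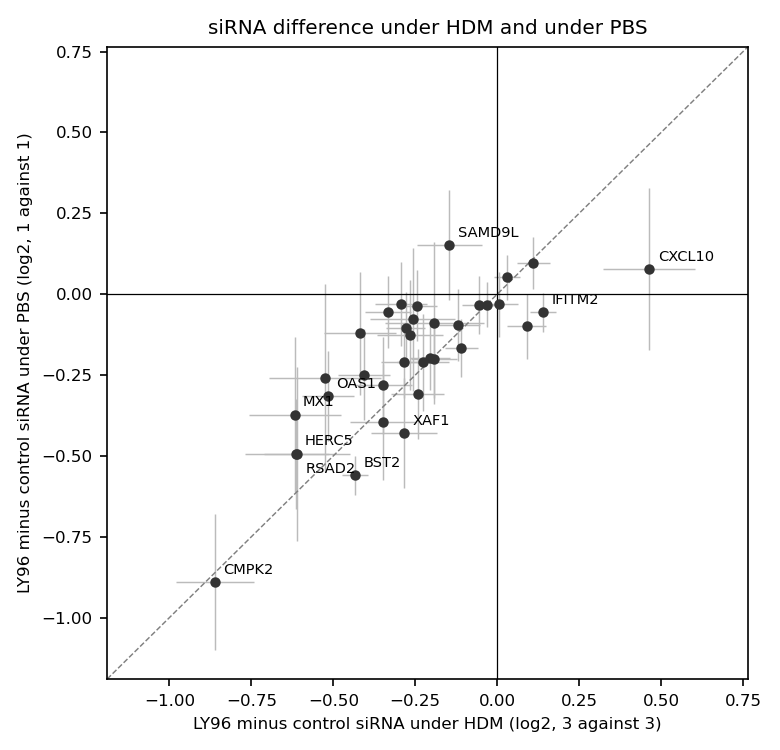
LY96 minus control siRNA for the 35 genes in log2(FPKM + 1), under HDM on the horizontal axis (3 libraries against 3) and under PBS on the vertical axis (1 against 1), with bars for the standard error from limma and a dashed line of equality. CMPK2, RSAD2, HERC5, BST2 and MX1 lie at the lower left, and 31 of the 35 points have the same sign on both axes.

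The response to HDM was small in most of these genes. Averaged over both siRNAs, 5 of 35 were higher with HDM and 0 lower, by limma over all 8 libraries; of 12604 genes, 4.86% were called higher and 3.50% lower. At an unadjusted p below 0.05 there were 11 of the 35 (31.4%), against 21.6% of all genes. CXCL10 rose by 0.94 ± 0.14 on the log2 scale (limma adjusted p = 0.00413), with ratios of HDM to PBS of 2.80 with control siRNA and 3.97 with LY96 siRNA. DHX58, at 4.07 and 3.74 FPKM in the control and LY96 PBS libraries, rose by 0.28 ± 0.06 (limma adjusted p = 0.0168), and each of its 6 HDM values lay above both PBS values. ISG20 rose by 0.27 ± 0.06 (limma adjusted p = 0.0261), BST2 by 0.20 ± 0.04 (0.00894) and IFITM3 by 0.19 ± 0.04 (0.0225). IFITM3 was at 597 FPKM under PBS and 662, 707 and 673 FPKM under HDM with control siRNA, and at 584 FPKM under PBS and 673, 695 and 629.8 FPKM under HDM with LY96 siRNA, so that all 6 HDM values lay above both PBS values. The ISG20 call was lost without control HDM library 2 or 3 or LY96 HDM library 1 (0.0516 to 0.0563). The median over the 35 genes was 0.05, against 0.01 over all genes.

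With control siRNA alone, 0 of 35 genes passed the limma test for HDM, and 9 (25.7%) had an unadjusted p below 0.05, against 16.2% of all genes; 1.55% of all genes were called higher and 0.738% lower. All 3 control HDM values lay above the PBS library in 22 of the 35 genes and below it in 1, against 33.8% above and 29.2% below over all genes. With LY96 siRNA, 3 of 35 were higher and 0 lower: CXCL10 by 1.13 ± 0.20 (limma adjusted p = 0.0136), BST2 by 0.27 ± 0.05 (0.0185) and DHX58 by 0.38 ± 0.08 (0.0307); of all genes, 2.91% were called higher and 1.98% lower. All 3 LY96 HDM values lay above the LY96 PBS library in 12 genes and below it in 3, against 33.4% and 27.7% over all genes. The DHX58 call was lost without control HDM library 3 or any LY96 HDM library (0.0519 to 0.0740). The estimate for CXCL10 with control siRNA was 0.74 ± 0.20 (limma adjusted p = 0.110), and the difference between its responses with the 2 siRNAs, 0.39 (95% interval -0.26 to 1.03), did not pass.

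**Figure D5:**
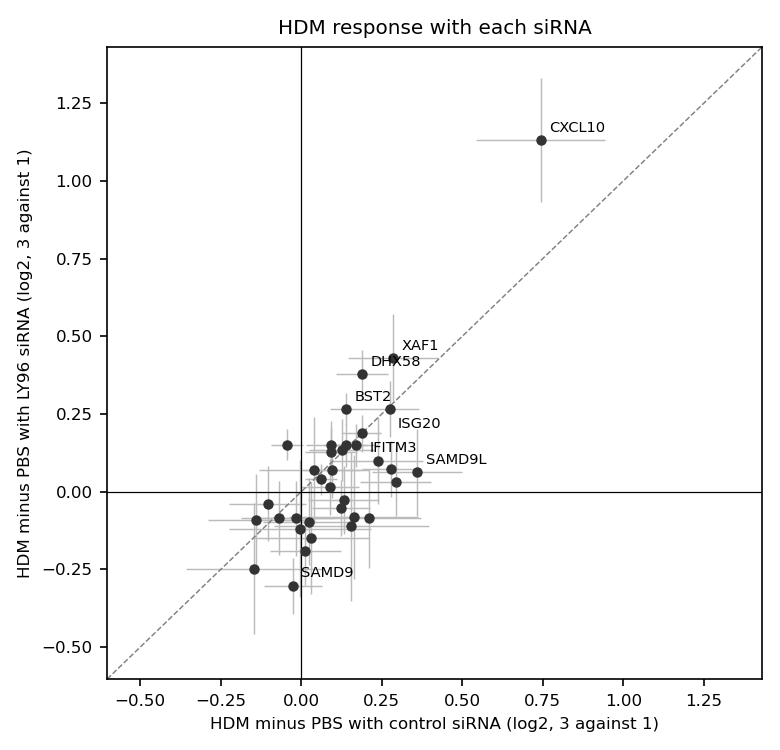
HDM minus PBS for the 35 genes in log2(FPKM + 1), with control siRNA on the horizontal axis and LY96 siRNA on the vertical axis (3 libraries against 1 on each), bars for the standard error from limma, and a dashed line of equality. CXCL10 stands at 0.74 and 1.13, and the other 34 points lie between -0.30 and 0.43 on both axes.

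The 35 genes moved together from library to library within a group. Of the 3 control HDM libraries, library 2 held the highest value in 23 of the 35 genes and library 1 the lowest in 31. Of the 3 LY96 HDM libraries, library 1 held the highest value in 27 and library 3 the lowest in 24. Over all genes, control HDM library 2 held the highest value in 33.5% and library 1 the lowest in 38.1%, and LY96 HDM library 1 held the highest in 27.6% and library 3 the lowest in 36.7%. The median deviation of the genes from their mean over 8 libraries was 0.04, 0.21 and 0.15 in control HDM libraries 1, 2 and 3 and 0.01, -0.09 and -0.21 in LY96 HDM libraries 1, 2 and 3, while the same median over all genes stayed between -0.02 and 0.02. It was 0.01 in the control PBS library and -0.14 in the LY96 PBS library. Control HDM library 1 and LY96 HDM library 1 thus lay close together on this scale, and the other HDM libraries carried most of the separation. The ribosomal RNA share also differed within the groups. It was 0.824%, 0.475% and 0.565% in control HDM libraries 1, 2 and 3. In LY96 HDM libraries 1, 2 and 3 it was 1.03%, 1.03% and 1.31%. The part of this share in the joint movement of the 35 genes was not tested. The median coefficient of variation of the genes was 7.32% in the control HDM group and 8.91% in the LY96 HDM group, against 4.56% and 4.74% over all genes. Without control HDM library 2 and LY96 HDM library 3, a choice made after the values were seen, the median siRNA difference of the 35 genes was -0.15 and 4 were called lower, beside 2.49% of all genes.

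Of the 9 interferon genes looked up, IFNA2, IFNG, IFNL1, IFNL2 and IFNL3 were listed at 0 in all 8 libraries, and IFNA1, IFNB1 and IFNK had means below 1 FPKM. IFNE, the epithelial type I interferon, was the 1 ligand tested, at 2.09, 1.46 and 1.58 FPKM in the control HDM libraries, 1.09, 1.04 and 1.03 FPKM in the LY96 HDM libraries, and 2.11 and 1.29 FPKM in the control and LY96 PBS libraries. Its difference with LY96 siRNA under HDM was -0.39 ± 0.10 (limma adjusted p = 0.0312). Among the receptor, kinase and ISGF3 genes, STAT2 was lower with LY96 siRNA under HDM, at -0.25 ± 0.04 (limma adjusted p = 0.00391), while IRF9, the DNA-binding part of ISGF3, had an estimate of -0.12 (0.324). IFNGR1, a chain of the interferon gamma receptor, was higher by 0.24 ± 0.04 (limma adjusted p = 0.00482). Over both siRNAs, HDM raised IFNGR1 by 0.96 ± 0.04 (limma adjusted p = 1.34e-06), IFNGR2 by 0.22 and IFNAR2 by 0.23. Under HDM the IFNE call was lost without control HDM library 1 or 3 or any LY96 HDM library (0.0616 to 0.0815). The IFNAR2 rise with HDM lost its call without control HDM library 2 or 3 or LY96 HDM library 3 (0.0504 to 0.0586).

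Of 11 tested genes for sensing and interferon induction, 1 was lower and 3 were higher with LY96 siRNA under HDM. Over all genes tested, 8.92% were called lower and 6.68% higher, so the 1 lower of 11 lay near that share. DDX58, which encodes RIG-I, was lower at -0.32 ± 0.09 (limma adjusted p = 0.0471), and the kinase IKBKE (0.40 ± 0.07), the double-stranded RNA receptor TLR3 (0.25 ± 0.05) and the factor IRF2 (0.16 ± 0.04) were higher (limma adjusted p = 0.00713, 0.0169 and 0.0388). HDM raised IKBKE by 0.96, IRF1 by 0.50 and TLR3 by 0.22 over both siRNAs, and lowered 0 of the 11, beside 4.86% of all genes called higher and 3.50% lower. The DDX58 call was lost without control HDM library 2 or 3 or any LY96 HDM library (0.0701 to 0.145), the IRF2 call without any single HDM library but control HDM library 3 (0.0636 to 0.110), and the TLR3 siRNA call without control HDM library 1 or LY96 HDM library 2 (0.0506 and 0.0598). The TLR3 rise with HDM lost its call without any single HDM library but LY96 HDM library 3 (0.0544 to 0.0808). Of 42 other tested interferon-stimulated genes, 14 were lower and 1 higher with LY96 siRNA under HDM, beside 8.92% and 6.68% of all genes. Their median difference was -0.14, against -0.02 over all genes. The 4 most abundant of the 14 were B2M, the light chain of MHC class I (-0.27 ± 0.04, limma adjusted p = 0.00267), IFI27 (-1.70 ± 0.10, 5.33e-04), IFI6 (-0.58 ± 0.12, 0.0293) and GBP1, an interferon-induced GTPase (-0.33 ± 0.05, 0.00428). IFI27, a mitochondrial protein, was at 227 to 303 FPKM in the control HDM libraries and at 79.0 to 82.5 FPKM in the LY96 HDM libraries, and at 249 and 77.3 FPKM in the control and LY96 PBS libraries. HDM raised 14 of the 42 over both siRNAs and lowered 0, beside 4.86% and 3.50% of all genes. The 4 most abundant of those raised were B2M (0.23), the immunoproteasome subunit PSMB9 (0.34), the ISG15-conjugating enzyme UBE2L6 (0.24) and STAT3 (0.32). Of 9 tested negative regulators, PIAS4 was lower (-0.19 ± 0.05, limma adjusted p = 0.0392) and SOCS3, an inhibitor of JAK kinases, higher (0.41 ± 0.04, 6.42e-04) with LY96 siRNA under HDM, and HDM raised SOCS3 by 0.46 and PTPN2 by 0.30. The siRNA counts of 1 lower and 1 higher of 9 lay near the shares over all genes. The IFI6 call was lost without control HDM library 2 or 3 or LY96 HDM library 2 or 3 (0.0560 to 0.0919), and the PIAS4 call without any single HDM library but LY96 HDM library 2 (0.0763 to 0.108).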

How the data were processed

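RNA of 8 BEAS-2B libraries was analysed from 8 deposited tables of 26485 genes. The deposited values were taken as FPKM made by the authors: the table headers name no unit, the values are not whole numbers, and library totals differ. The submitters' processing notes name HISAT2 2.2.0 and the build hg38; which program computed the values was not given in the sources used here. Low values showed no whole-read steps (at most 1.77% of low-gene ratios fell in a window of 1%), so depth is unknown and counting error could not be given. From these values log2(FPKM + 1) was computed and fitted with limma 3.58.1 in R 4.3.3 (eBayes, trend and robust). Genes averaging 1 FPKM or more entered, with Benjamini-Hochberg adjustment over all genes tested and a threshold of 0.05, two-sided. The siRNA contrast under HDM was fitted on the 6 HDM libraries and the other contrasts a 4-group model over all 8, each with 4 residual degrees of freedom. Intervals are 95% limits from the moderated fit. The fit was tested on simulated data.

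The 36 genes, the pathway and marker lists and the tests were chosen with earlier results of these data known. Genes named with values in every library were those passing the siRNA test under HDM or an HDM contrast, plus CXCL10 and CXCL11; ISG15 was added for its role. From the pathway lists up to 4 called genes of highest mean FPKM were named, with IRF9 added; the list of receptor, kinase and ISGF3 genes is not reported in full here. Gene positions are from GENCODE v29 (GRCh38), promoters from RefSeq (GRCh38.p14). Other pseudocounts, scalings, filters, models and left-out libraries were tried as alternatives.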

Additional observations from a re-analysis of the deposited data

How the results depend on the processing

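The count of 15 genes lower with LY96 siRNA under HDM stood beside 8.92% of all genes called lower. This share also moved between settings, though not always with the count, which stayed at 15 without LY96 HDM library 1 (5.52%). The count became 8 with no filter on low values (3.82% of all genes) and 9 without trend and robust moderation (6.51%). It rose to 18 in an additive model over all 8 libraries (11.8%). When 1 HDM library was left out it ran from 6 to 15 (4.39% to 6.34% of all genes). Without control HDM library 2 and LY96 HDM library 3, chosen after seeing the data, it was 4 (2.49%). The 1 gene higher became 0 with no filter, without trend and robust moderation, in the additive model and without those 2 libraries, became 2 after scaling to equal totals, and ran from 0 to 1 with 1 library left out. Over all genes, 842 of 12598 were called higher in the main analysis. In those 4 settings there were 631 of 19700, 701 of 12598, 998 of 12604 and 319 of 12578, and after scaling to equal totals 895 of 12598. For HDM over both siRNAs, the 5 genes higher became 3 with no filter and ran from 4 to 6 with 1 library left out. With control siRNA, the 0 genes higher became 1 with a pseudocount of 0.1. With LY96 siRNA, the 3 genes higher became 0 with no filter and ran from 2 to 4 with 1 library left out. Under PBS, the 1 gene lower became 0 without trend and robust moderation. With no filter more genes are tested, and with libraries left out fewer samples enter; the cause of the other changes was not tested. A spacing of 1 base instead of 2 between the GAAA repeats gave 13 genes with a promoter match instead of 20. Over the 35 genes and 16 alternatives for the siRNA effect under HDM, the call stayed as it was in 465 comparisons, was lost in 83 and was gained in 12, and no gene called in either analysis changed sign.

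Sample numbers are shared between the siRNA groups, but the labels tie them to no culture or day. Deviations from the group means correlated at 0.034, -0.019 and -0.022 between libraries of the same number over all genes. Over the 35 genes tested these values were -0.271, 0.174 and -0.089. Not every library correlated best with its own number. With 3 libraries a group, such values cannot decide whether libraries of the same number shared a culture or day. With the number as a replicate block, 11 genes were lower and 2 higher with LY96 siRNA under HDM. Of all 12598 genes, 7.29% were then called lower and 716 genes higher, against 8.92% lower and 842 genes higher without the block. The block ended the calls of IFIT1 (limma adjusted p = 0.0552), ISG20 (0.0718), MX1 (0.113), OASL (0.0821) and PARP14 (0.0819), and added CXCL10 (0.0366) and IFI44 (0.0269). No paired analysis of the PBS libraries was possible because each siRNA had 1 such library.

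The replicated contrast rests on 3 libraries a group and unknown depth, so values near 1 FPKM (CMPK2, RSAD2, CXCL10) carry an unknown counting error. Contrasts with PBS rest on 1 library a group. LY96 was listed at 0 throughout, so the labelled knockdown was not checked by its target.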
